A study of Mus musculus with 12 samples.

Results

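The WNT genes examined here are the ligands, the proteins that release them, their receptors, the antagonists outside the cell and the proteins that carry the signal inside it. They were chosen by symbol, as all genes whose symbols start with Wnt, Fzd, Sfrp or Dkk and a digit, together with 15 named genes such as *Lef1*, *Ctnnb1* and *Porcn*. The rule took 52 of the 21859 genes of the table: 19 ligands, 2 secretion genes, 14 receptors, 10 secreted antagonists and 7 intracellular genes. RNA was measured in GFRa1+/KIT- spermatogonia, which were sorted from adult mouse testes and are enriched for spermatogonial stem cells. In these mice EGFP reports *Gfra1*, the gene of a receptor for the niche factor GDNF, and surface KIT marks cells that have begun to differentiate. The 5 control libraries came from testes left in the scrotum. The 7 cryptorchid libraries came from testes that had been attached to the abdominal wall, and both were taken on day 10 after surgery. Surgery was unilateral: the left testis was moved and the right stayed in place as the control. Side and testis position therefore cannot be told apart, and control and cryptorchid testes can share a mouse. Cryptorchidism here is surgical, although the labels enter it as a genotype. Both groups went through the same sort and the same full-length cDNA amplification (Smart-seq2). The cells were released from the tubules at a lower temperature for control than for cryptorchid testes, so digestion and testis position cannot be told apart. Nothing states which libraries share a mouse, and P-values measure the spread between these libraries.

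WNT proteins are lipid-modified ligands. The acyltransferase PORCN adds the lipid, and the carrier WLS takes the ligand to the cell surface. There a frizzled receptor binds it together with LRP5 or LRP6, and the β-catenin destruction complex, which contains AXIN, is switched off. β-catenin (CTNNB1) then enters the nucleus and joins the DNA-binding factors LEF1, TCF7, TCF7L1 and TCF7L2. SFRP proteins, FRZB and WIF1 bind ligands outside the cell, and DKK1, DKK2 and DKK4 act on LRP co-receptors. *Dkk3* is placed among the antagonists by its symbol. Other ligands, WNT5A and WNT5B among them, often act without β-catenin. In the testis, β-catenin signalling is known to favor the move of undifferentiated spermatogonia toward differentiation, and SHISA6 is known to restrain it in GFRa1+ cells.

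Control libraries held 4511730 to 24345368 reads on genes (median, 7603202), and cryptorchid libraries held 3306771 to 20027902 (median, 4611830). *Gfra1* was read in every library, at a median of 8.08 log2 RPM (log2 of reads scaled to the library total) in control and 8.46 in cryptorchid cells. *Kit* RNA was also present, at a median of 4.44 and 4.99 log2 RPM. Other markers went both ways. For undifferentiated spermatogonia, medians of *Ret*, *Zbtb16* (8.38 and 8.74), *Id4*, *Lhx1* and *Eomes* were also higher in cryptorchid cells. Those of *Nanos2* (3.63 and 2.79), *Nanos3*, *Bcl6b*, *Etv5*, *Sall4* and *Lin28a* were lower. For differentiating spermatogonia, *Stra8* was higher (6.13 and 7.21), while *Sohlh1* (7.34 and 6.43) and *Dmrtb1* (3.92 and 2.81) were lower. The ranges of each gene overlapped between the groups. The libraries were split into 2 sets by replicate number, as their values differed between these numbers. Replicates 1 to 3 held 6800360 to 24345368 reads on genes, against 3306771 to 5481947 in replicates 4 and above. The share of reads on genes was 74.5 to 94.0% in the first set and 94.8 to 99.9% in the second. Both groups are in both sets, with 3 control and 3 cryptorchid libraries in the first and 2 and 4 in the second, and these sets are called batches below. Cryptorchid replicate 2 had the lowest mean correlation with its own group (r = 0.775).

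All 52 WNT genes had at least 1 read in some library, 26 had reads in every library, and 41 passed the expression filter (log2 of the mean RPM above -1). The filter uses the mean over all 12 libraries, so a gene could pass it through 1 group alone. Of the 11 genes below it, 10 had no more than 3 reads in at least 10 of the 12 libraries. These 11 were the ligands *Wnt1*, *Wnt7b*, *Wnt8b*, *Wnt10a*, *Wnt10b* and *Wnt16*, the receptors *Fzd1* and *Fzd8*, and the antagonists *Dkk1*, *Dkk4* and *Sfrp5*.

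Levels between genes were compared per length, as RPM per kilobase of exon. *Wnt5b* was the leading ligand, with a median of 14.7 RPM per kilobase in control and 22.7 in cryptorchid cells. *Wnt3*, a ligand of the β-catenin pathway, came next at 4.46 and 1.25, and *Wnt9a* followed at 1.07 and 1.17. In control cells no value of *Wnt3* (3.19 to 6.55) reached the lowest value of *Wnt5b* (8.40). *Fzd3* led the frizzled receptors at 8.72 and 8.81, ahead of *Fzd6* at 2.30 and 1.15. The co-receptors *Lrp6* (4.57 and 6.05) and *Lrp5* (2.85 and 3.76) overlapped in their ranges. *Dkk3* (13.0 and 12.6) and *Sfrp2* (9.95 and 6.26) were the antagonists with the highest control medians, and their control ranges overlapped. Of the 4 TCF/LEF factors *Tcf7* was highest in control cells (22.3 and 29.7) and *Lef1* was lowest (2.11 and 1.08).

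**Figure D1:**
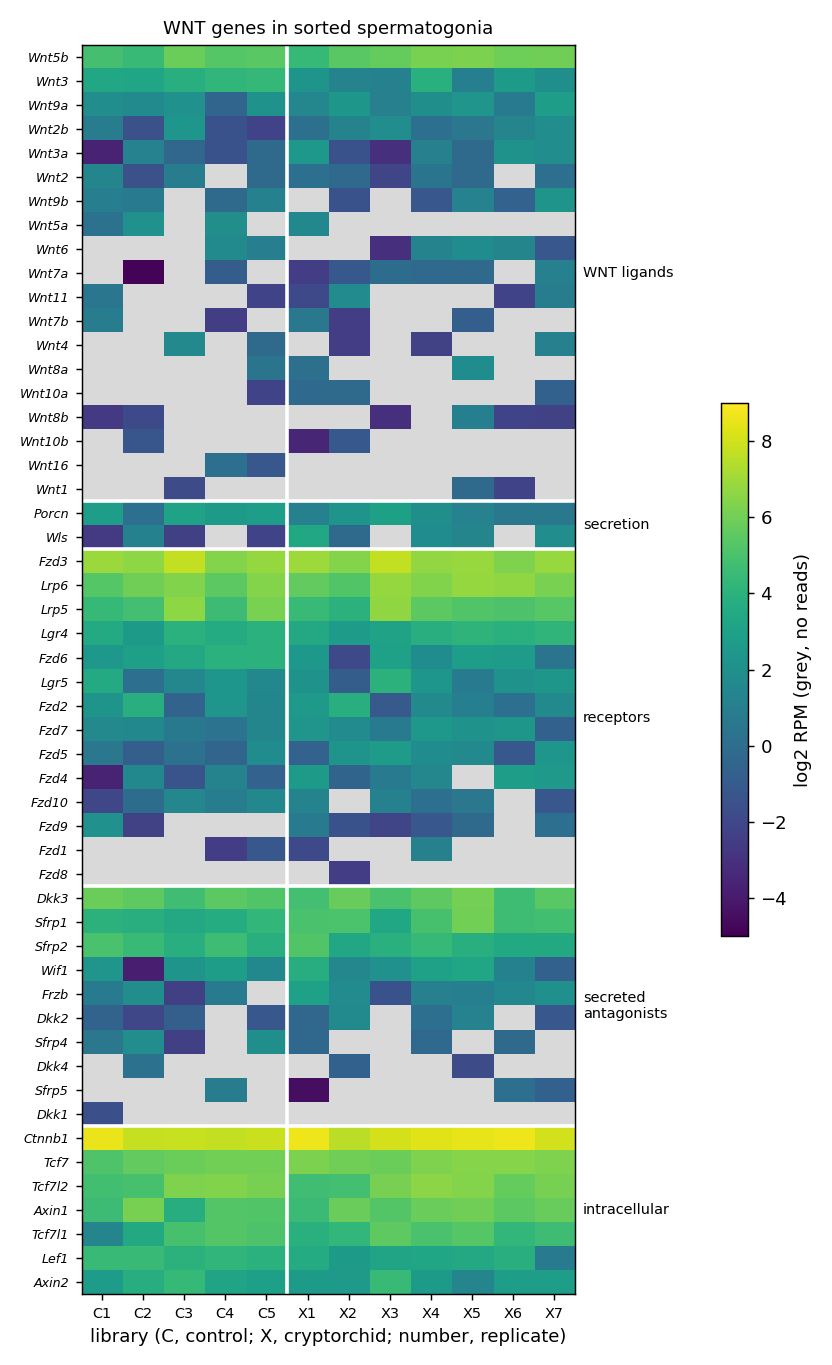
Level of each of the 52 WNT genes (rows, grouped by role) in each library (columns; C, control replicates 1 to 5; X, cryptorchid replicates 1 to 7). Color is log2 RPM and grey marks a gene without reads; rows are comparable along their length but not with each other, as gene lengths differ. *Wnt5b*, *Fzd3*, *Dkk3*, *Ctnnb1* and *Tcf7* are bright in all 12 libraries, while most ligands are grey in several.

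The WNT genes were compared between cryptorchid and control cells. Genes were called when the groups differed by at least 2-fold with an unadjusted P under 0.05 in limma, a linear model fitted over all 16932 genes that passed the filter. Of the 41 WNT genes tested, 3 were called lower in cryptorchid cells (*Wnt3*, *Fzd6* and *Lef1*), where 2.36% of all genes tested were called lower. The ligand *Wnt7a* was called higher, where 3.56% of all genes were. *Wnt7a* had 0 to 3 reads in the control libraries and passed the filter only through the cryptorchid libraries, so this call does not support a rise. In either direction 4 of 41 were called, 9.76%, against 5.92% of all genes. None of the 41 had a Benjamini-Hochberg adjusted P under 0.05 in limma, and 0.0118% of all genes passed that threshold. An unadjusted P under 0.05 was found for 5 of the 41 (12.2%), against 9.48% of all genes. *Lef1* was the WNT gene whose groups did not overlap. Such separation in the lower direction held for 0.283% of all genes, and in the higher direction, where no WNT gene had it, for 0.555%.

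The median log2 difference (cryptorchid minus control) of the 41 genes was 0.34, where the median over all genes tested was 0.10. It was 0.03 in the first batch alone and 0.09 in the second, against 0.06 and 0.01 over all genes. With a batch term it was 0.28, against 0.04 over all genes. Mean log2 RPM was higher in cryptorchid cells for 25 of 41 WNT genes (61.0%) and for 56.7% of all genes. The median difference was 0.51 for ligands, 0.05 for receptors, 0.83 for secreted antagonists and 0.29 for intracellular genes. A gene without reads takes a higher value in a shallower library, and the median cryptorchid library was shallower, which can raise such genes. The part of depth in the median difference was not tested. With 1 common floor the median over the WNT genes was 0.29, against 0.09 over all genes. With the filter at log2 mean RPM above 2, which left 21 WNT genes, it was 0.05, against 0.07 over all genes. Many of the larger differences belong to genes with few reads. Among the 12 WNT genes with the smallest P-values, *Wnt7a*, *Wls*, *Wnt2b*, *Frzb*, *Fzd4* and *Wnt5a* each had 0 or 1 reads in at least 1 library, and of these 6 *Wnt7a* alone was called.

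**Figure D2:**
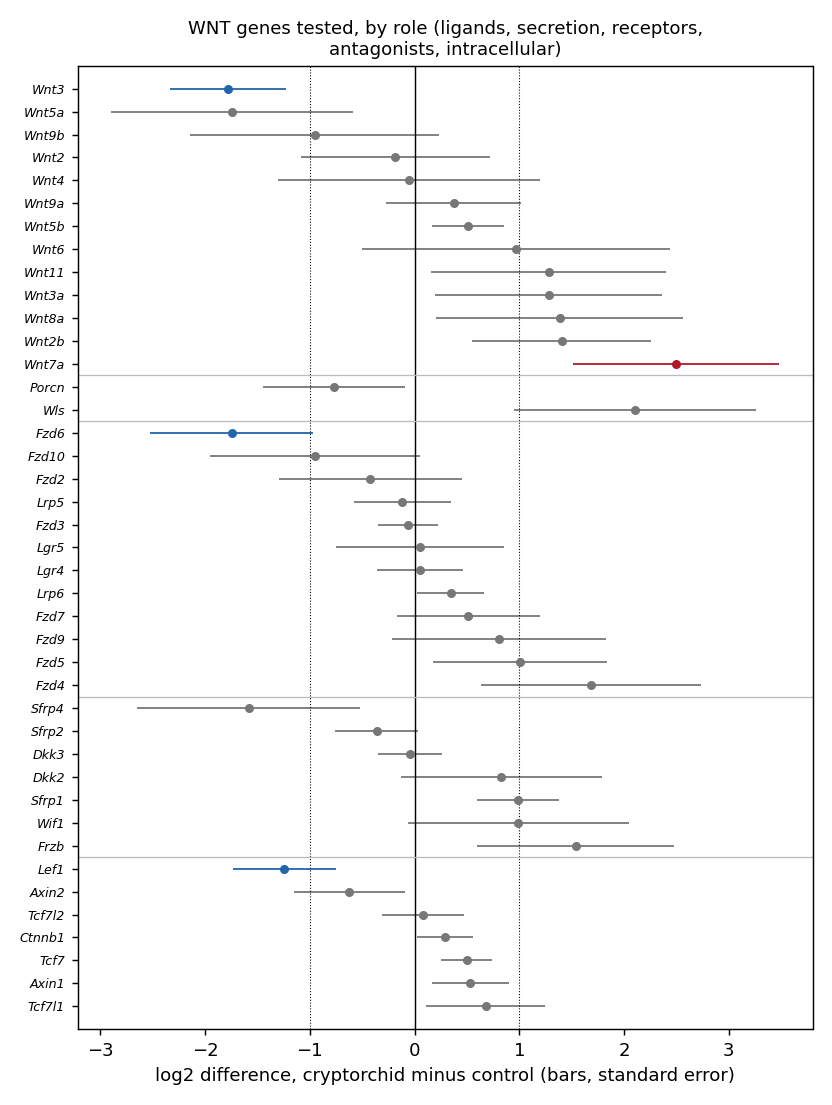
Log2 difference (cryptorchid minus control, horizontal axis) of the 41 WNT genes tested, in blocks by role from ligands at the top to intracellular genes at the bottom; bars are standard errors. Blue marks the 3 genes called lower, red the 1 called higher, and dotted lines the 2-fold limits. The called genes are spread over the blocks of ligands, receptors and intracellular genes, with no called gene among secretion genes or antagonists.

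*Lef1* encodes an HMG-box factor that binds DNA at WNT target genes and is itself known as a target of the pathway. It spans chr3:131110471-131224356 on the plus strand (GRCm38). Its log2 RPM was 4.45, 4.44, 3.98, 4.21 and 3.93 in control replicates 1 to 5. In the 7 cryptorchid libraries the lowest value was 0.78, the median 3.25 and the highest 3.81. All 7 cryptorchid libraries lay below all 5 control libraries. Means were 4.20 ± 0.245 (SD, n = 5) and 2.96 ± 1.03 (SD, n = 7), a log2 difference of -1.24 (SE 0.495), past the unadjusted threshold of limma (adjusted P = 0.436). The exact two-sided rank sum test gave 0.00253, which is the smallest P that 5 against 7 libraries allow, and 0.00667 with batches kept apart, again the smallest possible. Groups that do not overlap fix both at these minima, so they add nothing to the separation itself. Adjusted over all genes tested, the exact rank sum P was 0.301. The difference was -1.15 in the first batch and -1.25 in the second, and neither batch alone gave a call. Cryptorchid replicate 7, with 8 *Lef1* reads, was far below the others: without it the groups still did not overlap, but the difference was -0.88, under the 2-fold limit. With the replicate number as a block the *Lef1* difference was -0.98, also under that limit.

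*Wnt3* lies at chr11:103774150-103817957 on the plus strand. Its log2 RPM was 3.41, 3.29, 3.78, 4.24 and 4.33 in control replicates 1 to 5. Cryptorchid values ran from 1.04 through a median of 1.95 to 3.90. All cryptorchid libraries but 1 were below every control, and replicate 4, at 3.90, was within the control range. The means were 3.81 ± 0.472 (SD, n = 5) and 2.03 ± 1.01 (SD, n = 7). The log2 difference was -1.78 (SE 0.552; adjusted P = 0.308 in limma), a 3.44-fold lower level, and the exact rank sum test gave P = 0.0177. The difference was alike in size in the first batch (-1.93) and the second (-1.91), and *Wnt3* was called in each of the 29 alternatives, at -2.09 to -1.47.

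*Fzd6* encodes a frizzled known for planar cell polarity and lies at chr15:39006034-39038188 on the plus strand. Control log2 RPM was 2.47, 2.90, 3.47, 3.93 and 4.0 in replicates 1 to 5. Cryptorchid libraries had a lowest value of -1.90 (3 reads), a median of 2.46 and a highest value of 3.0. The groups overlapped: 4 cryptorchid libraries were below every control, and the other 3 were within the control range. The log2 difference was -1.75 (SE 0.781; adjusted P = 0.490 in limma), and the exact rank sum P was 0.0303. It was -1.76 in the first batch, which alone gave no call, and -2.04 in the second. The call was lost in 5 of the 12 fits that left out 1 library. Without cryptorchid replicate 2 the difference was -1.16. It was also lost without cryptorchid replicate 7 and without control replicate 3, 4 or 5, at -1.54, -1.72, -1.60 and -1.59. Leaving out the 3 libraries of lowest weight gave -1.30 and no call.

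*Wnt7a*, on the minus strand at chr6:91363981-91411363, was barely read. Control replicates 1 to 5 had 0, 1, 0, 3 and 0 reads. Cryptorchid libraries had between 0 and 10 reads, with 4 in replicates 1 and 4 and none in replicate 6. Summed over libraries, 4 control and 34 cryptorchid reads gave an RPM ratio of 10.5, with an exact 95% interval of 3.76 to 40.9 that covers counting error only and no spread between libraries. This ratio weights the deepest libraries most. In the fit the log2 difference was 2.50 (SE 0.983), which depends on the value given to libraries without reads, and 2.03 between the group means of RPM. The adjusted P was 0.432 in limma, and the exact rank sum P was 0.0480. The call was lost with 1 RPM or 0.1 RPM added to each value, and with 1 common value for genes without reads. It was also lost under quantile normalization, without control replicate 1 or 2, without the 3 libraries of lowest weight, and in each batch alone (3.13 and 1.19), 9 alternatives in all.

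**Figure D3:**
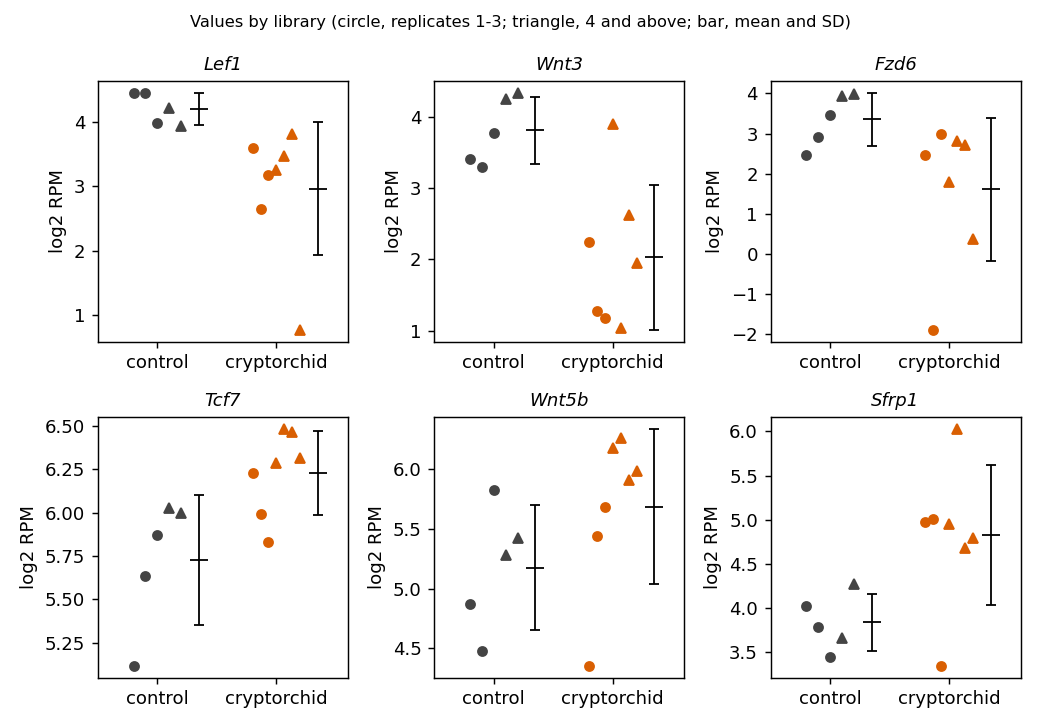
Log2 RPM of 6 WNT genes in each library (grey, control; orange, cryptorchid; circles, replicates 1 to 3; triangles, replicates 4 and above), with the mean and SD beside each group; each panel has its own axis. *Lef1* shows no overlap, *Wnt3* has 1 cryptorchid library among the controls, and *Sfrp1* has 1 cryptorchid library below the controls and 6 above them.

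Markers of spermatids, which the sort should remove, were below every control in 5 of the 7 cryptorchid libraries. The summed RPM of 5 spermatid genes was 459 to 2385 in control (median, 1030) and 12 to 1521 in cryptorchid libraries (median, 247), and all 5 genes were read in both groups. *Prm1* alone had medians of 7.43 and 5.04 log2 RPM. The 2 controls with the highest spermatid sums, replicates 4 (2015) and 5 (2385), had the highest *Wnt3* (4.24 and 4.33) and *Fzd6* (3.93 and 4.0) of the 12 libraries. The control with the lowest sum, replicate 2 (459), had the lowest control value of *Wnt3* (3.29), but *Fzd6* was lowest in control replicate 1 (2.47), at a sum of 1030. Control replicates 4 and 5 are also the 2 controls of the second batch, so spermatid content and batch cannot be told apart there. *Lef1* was highest in control replicates 1 and 2, at sums of 1030 and 459. Among cryptorchid libraries, replicate 6 had the highest sum (1521) and the highest *Lef1* (3.81). Its *Wnt3* (2.62) was below every control, and its *Fzd6* was 2.72. Replicate 4, at a sum of 561, had the highest *Wnt3* of the cryptorchid libraries (3.90). Summed spermatocyte markers moved the other way, at 228 to 551 RPM in control and 315 to 687 in cryptorchid libraries, with 5 of 7 above every control. Summed Sertoli markers were 45.5 to 262 RPM in control and 41.5 to 244 in cryptorchid libraries. The part of these cells in the differences was not tested, and in sorted bulk RNA fewer cells with a transcript and less of it per cell cannot be told apart. The exons of *Lef1* and *Fzd6* overlap annotated noncoding genes on the other strand (*Gm43352* and *Gm26704*). The same holds for *Axin2* (*Gm11670*), *Sfrp2* (*Gm26771*), *Tcf7l1* (*Gm15401*) and *Wnt5a* (*Gm2670*). The counting strand is not stated, so reads of each pair cannot be told apart.

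The promoters of *Lef1* and *Wnt3*, the called genes with the clearest separation, are shown because both genes belong to the β-catenin branch and both were lower in cryptorchid cells. The sequences are from RefSeq (GRCm38.p6) and cover the 250 bases before the most upstream RefSeq start of each gene, chr3:131110047-131110296 and chr11:103773925-103774174, on the plus strand, 5′ to 3′. The GENCODE start of *Wnt3* lies a little upstream of that of RefSeq, so the end of its stretch is inside the GENCODE gene. Capitals mark CTTTG, the core letters of TCF/LEF binding, searched on both strands (CAAAG on the other).
Lef1: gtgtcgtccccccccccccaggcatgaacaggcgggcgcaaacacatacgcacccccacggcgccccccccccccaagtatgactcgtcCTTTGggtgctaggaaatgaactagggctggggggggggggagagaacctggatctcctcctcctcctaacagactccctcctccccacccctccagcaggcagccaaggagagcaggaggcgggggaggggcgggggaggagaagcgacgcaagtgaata
Wnt3: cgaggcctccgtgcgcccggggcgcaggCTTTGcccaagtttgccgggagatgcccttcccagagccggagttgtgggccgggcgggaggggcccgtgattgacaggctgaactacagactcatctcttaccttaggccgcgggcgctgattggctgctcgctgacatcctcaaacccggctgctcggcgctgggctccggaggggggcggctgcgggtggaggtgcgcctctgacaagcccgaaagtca
Each promoter held the core once. It was also in 17 of the 35 WNT gene promoters with a sequence (48.6%) and in 48.8% of all 27025 promoters of that length, so its presence does not set these genes apart. The WNT gene promoters were richer in CG dinucleotides, with a median of 23 against 6 over all promoters.

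None of the other 3 TCF/LEF genes was called. *Tcf7*, which encodes TCF1, was 5.12, 5.63, 5.87, 6.02 and 6.0 log2 RPM in control replicates 1 to 5. The cryptorchid values were 5.83 at the lowest, 6.28 at the median and 6.48 at the highest, and 5 of 7 were above every control. The log2 difference was 0.50 (SE 0.242; adjusted P = 0.537 in limma, exact rank sum P = 0.0480), within 2-fold, and it was 0.47 and 0.38 in the batches. *Tcf7l2* had means of 5.69 ± 0.777 (SD, n = 5) and 5.77 ± 0.744 (SD, n = 7), with a log2 difference of 0.08 (SE 0.393). *Tcf7l1* differed by 0.68 (SE 0.567; adjusted P = 0.740 in limma).

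Within each library, *Lef1* made up 4.08 to 12.8% of the summed RPM per kilobase of the 4 TCF/LEF genes in control cells and 0.435 to 3.74% in cryptorchid cells, again without overlap. *Tcf7* made up 54.3 to 68.3% and 51.3 to 78.0%. The log2 ratio of *Lef1* to *Tcf7* ran from -2.06 to -0.67 in control and from -5.54 to -2.64 in cryptorchid libraries. These shares and ratios were chosen after the values were seen and carry no test.

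**Figure D4:**
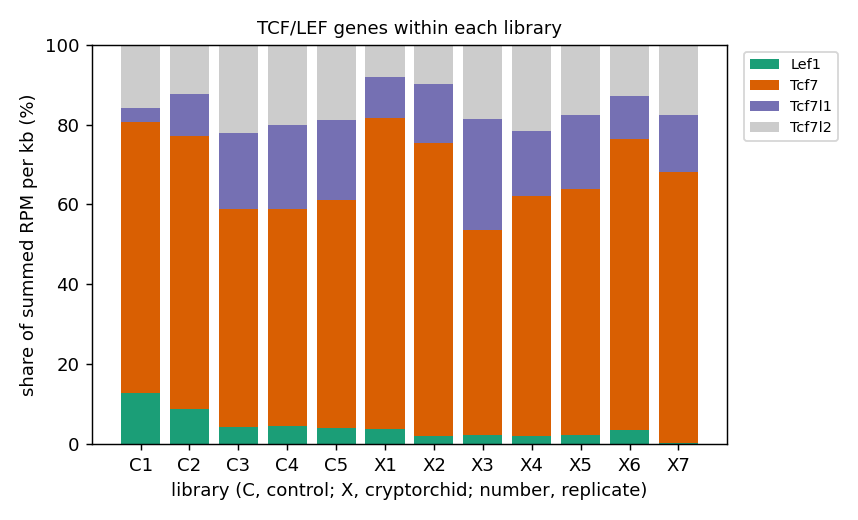
Share of the summed RPM per kilobase of exon of the 4 TCF/LEF genes that each made up (vertical axis, %), in each library (C, control; X, cryptorchid; number, replicate). *Lef1*, at the base of each bar, is 4.08% or more in the 5 control libraries and 3.74% or less in the 7 cryptorchid libraries, and *Tcf7* is the largest share in all 12.

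*Ctnnb1*, the gene of β-catenin, was the most strongly read WNT gene, with 1067 to 9262 reads per library. Its log2 RPM was 8.57, 7.79, 7.82, 7.70 and 7.88 in control replicates 1 to 5. The cryptorchid range was 7.54 to 8.63 (median, 8.32), which overlapped that of the controls. The log2 difference was 0.29 (SE 0.264; adjusted P = 0.761 in limma). It overlaps the protein-coding *Ulk4* on the other strand.

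*Axin2*, a feedback inhibitor and a widely used readout of β-catenin activity, was 2.67, 3.72, 4.39, 3.18 and 2.91 log2 RPM in control replicates 1 to 5. Cryptorchid values ran from 1.40 through 2.65 to 4.49. In cryptorchid cells, 4 of the 7 were below every control, and replicate 3 was above every control. The log2 difference was -0.62 (SE 0.530; adjusted P = 0.742 in limma), and the gene was not called. *Axin1*, the constitutive scaffold of the destruction complex, differed by 0.53 (SE 0.370; adjusted P = 0.683 in limma).

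The leading ligand *Wnt5b*, known mainly for signalling without β-catenin, was not called. Its values were 4.87, 4.48, 5.83, 5.28 and 5.43 log2 RPM in control replicates 1 to 5 and 4.35 to 6.26 (median, 5.91) in cryptorchid libraries. Of the cryptorchid libraries, 4 were above every control and 1 was below them. The log2 difference was 0.51 (SE 0.342; adjusted P = 0.673 in limma). As a share of the summed RPM per kilobase of all ligands, *Wnt5b* was 56.8 to 70.6% in control and 52.6 to 87.4% in cryptorchid libraries. *Wnt3* was 14.7 to 25.8% and 1.77 to 13.3%, shares that do not overlap, although the *Wnt3* values themselves did. These shares, of a sum made up mostly by *Wnt5b*, were described after the values were seen and carry no test. *Wnt9a* differed by 0.37 (SE 0.646). *Wnt5a* was without reads in 2 control libraries and in 6 of the 7 cryptorchid libraries, and its difference was -1.74 (SE 1.16; adjusted P = 0.669 in limma).

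The genes for ligand release were not called. *Porcn* was 2.82, 0.11, 3.09, 2.63 and 2.87 log2 RPM in control replicates 1 to 5 and 0.58 to 2.95 (median, 1.23) in cryptorchid libraries. The difference was -0.77 (SE 0.675; adjusted P = 0.751 in limma), and control replicate 2 stood apart from the other 4 controls. *Wls* had 4, 64, 2, 0 and 1 reads in control replicates 1 to 5 and 0 to 231 reads in cryptorchid libraries, with 4 of the 7 above every control. Its log2 difference was 2.1 (SE 1.15; adjusted P = 0.591 in limma).

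Receptors other than *Fzd6* were not called. *Fzd3*, a frizzled with roles in axon guidance and cell polarity, had means of 6.89 ± 0.489 (SD, n = 5) and 6.82 ± 0.467 (SD, n = 7) log2 RPM. The difference was -0.07 (SE 0.286), and the ranges of 6.43 to 7.70 and 6.28 to 7.71 lay over each other. *Lrp6* differed by 0.34 (SE 0.322; adjusted P = 0.768 in limma) and *Lrp5* by -0.12 (SE 0.462; adjusted P = 0.956 in limma). The R-spondin receptors *Lgr4* and *Lgr5* both differed by 0.05, with SEs of 0.412 and 0.803. Within the frizzled family, *Fzd3* held 52.6 to 80.5% of the summed RPM per kilobase in control and 53.3 to 79.7% in cryptorchid libraries. *Fzd6* held 7.90 to 25.2% and 0.454 to 13.6%. The frizzled shares were also described after the values were seen.

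No secreted antagonist was called in the main fit, and *Sfrp1*, which was called higher with the replicate number as a block, came closest. It encodes a secreted frizzled-related protein that binds WNT ligands, and it lies at chr8:23411502-23449632 on the plus strand. Its log2 RPM was 4.01, 3.78, 3.44, 3.65 and 4.27 in control replicates 1 to 5. Cryptorchid values were 3.34 at the lowest, 4.95 at the median and 6.03 at the highest. All cryptorchid libraries but 1 were above every control, and replicate 3 was below every control. The means were 3.83 ± 0.320 (SD, n = 5) and 4.82 ± 0.791 (SD, n = 7), and the log2 difference was 0.99 (SE 0.391; adjusted P = 0.432 in limma), a 1.99-fold higher level just under the limit. The exact rank sum P was 0.0480, and 0.0800 with batches kept apart, where the difference was 0.69 in the first and 1.15 in the second.

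*Sfrp2* differed by -0.36 (SE 0.394; adjusted P = 0.808 in limma), and 4 of its 7 cryptorchid values were below every control. The log2 ratio of *Sfrp1* to *Sfrp2* within a library, described after the values were seen, was -0.99 to 0.51 in control and -0.56 to 2.28 in cryptorchid libraries. *Dkk3* had means of 5.36 ± 0.433 (SD, n = 5) and 5.31 ± 0.525 (SD, n = 7) and a difference of -0.04 (SE 0.309). *Frzb* had 41, 109, 2, 9 and 0 reads in control replicates 1 to 5 and 3 to 177 reads in cryptorchid libraries. Its log2 difference was 1.54 (SE 0.938; adjusted P = 0.627 in limma), and 2 of 7 cryptorchid libraries were above every control. The study lists *Frzb* among genes chosen on these samples, so its direction is not independent evidence.

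A further list of 55 genes covered the rest of the pathway, among them R-spondins, disheveled and cell polarity genes, destruction complex members and co-repressors. Of the 53 that passed the filter, 3 were called higher and 1 lower, which is 7.55% against 5.92% of all genes, and the median log2 difference was 0.14 against 0.10. *Dact1*, which encodes a disheveled-binding modulator, differed by 2.67 (SE 0.918; adjusted P = 0.366 in limma). Its control range of -3.50 to 2.20 log2 RPM overlapped the cryptorchid range of 1.10 to 3.88. *Dact1* had 0 to 200 reads per library, and its exact rank sum P was 0.0732. *Ror1*, a receptor for WNT5A, differed by 1.53 (SE 0.608; adjusted P = 0.436 in limma), with 6 of 7 cryptorchid libraries above every control. It had 13 to 329 reads per library, and its exact rank sum P was 0.0177. *Tle2*, a co-repressor of TCF factors, differed by 1.77 (SE 0.827; adjusted P = 0.522 in limma). It had 1 to 233 reads per library, and its exact rank sum P was 0.149. *Celsr3*, a cadherin of the polarity pathway, fell by 2.34 on the log2 scale (SE 0.941; adjusted P = 0.442 in limma), with 2 of 7 cryptorchid libraries below every control. It had 0 to 257 reads per library, and its exact rank sum P was 0.0480. The smallest P-values of this list belonged to better read genes under the 2-fold limit. These were *Ptk7* (-0.98, adjusted P = 0.342 in limma, at least 156 reads) and *Rspo2* (0.73, adjusted P = 0.355 in limma, at least 325 reads).

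*Shisa6* was 3.86 to 6.13 log2 RPM in control and 4.15 to 7.38 in cryptorchid libraries, a difference of 0.65 (SE 0.543; adjusted P = 0.739 in limma). Of 15 genes known as WNT targets in other tissues, 12 passed the filter and 1 was called (8.33%, against 5.92% of all genes). This was *T* (brachyury), which rose by 1.19 on the log2 scale (SE 0.518; adjusted P = 0.483 in limma), with 4 of 7 cryptorchid libraries above every control. *Ccnd1* differed by 0.32 (SE 0.313; adjusted P = 0.786 in limma), and the median over the 12 targets was 0.19. None of the 65 genes of both lists that were tested had an adjusted P under 0.05 in limma, where 11 of the 53 pathway genes (20.8%) and 1 of the 12 targets (8.33%) had an unadjusted P under 0.05, against 9.48% of all genes.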

How the data were processed

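RNA of sorted GFRa1+/KIT- spermatogonia was amplified by Smart-seq2, and the 5 control and 7 cryptorchid libraries were grouped by their titles. The authors trimmed the reads (Trim Galore 0.6.6), mapped them to mm10 (HISAT2 2.1.0), counted them over protein-coding genes and deposited log2 RPM values. Strand and duplicate removal were not given in the sources used here. Whole reads were recovered from the steps of the values (100% of values under 1000 reads, within 0.01), and the value of genes without reads was taken as 0.9 reads. Intervals cover counting error only.

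The deposited log2 values were fitted with limma 3.58.1 (R 4.3.3; lmFit, eBayes with trend) over 16932 genes, those whose mean RPM had a log2 above -1. Calls needed 2-fold and unadjusted P under 0.05. As no deposited value is a count, the main test was not a count model. Single genes were also tested by the exact two-sided rank sum, over 792 assignments or 300 within batches (Python 3.11.15). Positions are from GENCODE vM21, and all 52 genes matched. Named are members called or not overlapping, *Frzb*, *Axin2* and the 3 best read genes of each role (2 for secretion), 19 in all. Members and lists were chosen with earlier results of these data known. Markers of undifferentiated and differentiating spermatogonia, spermatocytes, spermatids, Sertoli, Leydig and peritubular myoid cells, macrophages, lymphocytes and endothelial cells were summed per library. The alternatives were other scalings, pseudocounts, filters and floors, library weights, the replicate number as a block, voom on recovered reads, batch terms and single batches, and each library left out in turn. Leaving out together the 3 libraries of lowest weight (control replicate 3, cryptorchid replicates 2 and 3) was chosen after seeing the data.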

Additional observations from a re-analysis of the deposited data

Results flagged for a closer look

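In 6 of the 38 groups of values of named genes, 1 library lay far from the rest of its group, by the ratio of its gap to the range of the group; chance alone flags about 1 in 20 such groups. *Lef1* in cryptorchid replicate 7 was 0.78 log2 RPM (8 reads), where the other 6 cryptorchid libraries were 2.65 to 3.81. *Wnt5b* in cryptorchid replicate 1 was 4.35, where the others were 5.44 to 6.26. *Ctnnb1* in control replicate 1 was 8.57, where the others were 7.70 to 7.88. *Wnt9a* in control replicate 4 was -0.46 (4 reads), where the others were 1.71 to 2.15. Control replicate 2 stood apart for both secretion genes: *Porcn* was 0.11 there and 2.63 to 3.09 in the other controls, and *Wls* was 1.15 there (64 reads) and -2.61 to -2.17 in the others.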

How the results depend on the processing

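The 3 lower calls and the 1 higher call were set against the alternatives. *Wnt3* was called in all of them. *Lef1* stayed lower in all 29 and lost its call in 4: without cryptorchid replicate 7, with the replicate block (-0.98), and in each batch alone. Genes called higher were 0 under quantile normalization, both pseudocounts, the filter at 2, the common floor and the first batch alone. They were 2 without a filter, with the fold of mean RPM and with the replicate block, 3 in the second batch and without the 3 libraries of lowest weight, and 6 with library weights. Leaving out 1 library gave 1 to 4 called higher and 1 to 4 called lower. The first batch alone gave 1 called lower. *Sfrp1* was called higher in 9 of 29 alternatives, *Wls* in 6 of 28 and *Frzb* in 3 of 28. No alternative gave a WNT gene an adjusted P under 0.05. Quantile normalization changed the split over all genes from 603 higher and 399 lower to 457 and 542, median centring to 532 and 501, the batch term to 580 and 635, the second batch alone to 635 and 705, and the first to 287 and 345.

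Same-numbered control and cryptorchid libraries deviated together with r = 0.0488 to 0.411 over 5 pairs, and 4 of the 5 control libraries correlated best with their own number. As 1 pair was near 0 and nothing states which libraries share a mouse, the numbers were not taken as pairs. The unilateral surgery leaves such pairs possible, so the unpaired fits may ignore a pairing. The replicate block moved the calls over all genes to 778 higher and 900 lower, of which 382 and 567 passed the adjusted threshold; library weights gave 882 and 703, of which 252 and 224 passed. Under the block the WNT calls were *Wnt7a* and *Sfrp1* higher and *Wnt3* and *Fzd6* lower.

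Small differences changed sign. *Fzd3* was 0.0430 with weights, 0.0433 with the block, 0.0022 with a batch term, 0.0520 in the second batch and 0.0449 without the 3 libraries, and -0.21 to 0.14 with 1 library left out. *Dkk3* was 0.0218 with weights, 0.0763 with the block and 0.0909 in the second batch (left out, -0.20 to 0.0885). *Tcf7l2* was -0.0817 with a batch term, -0.13 in the first batch and -0.0327 in the second (left out, -0.15 to 0.26). *Lrp5* was 0.0297 with weights and 0.15 without the 3 libraries (left out, -0.37 to 0.22). In the first batch *Wnt9a* was -0.21 (left out, -0.11 to 0.54) and *Porcn* 0.11 (left out, -1.32 to -0.57). The causes were not tested. Without the filter, *Wnt10a* was also called higher, with 0, 0, 0, 0 and 1 reads in control replicates 1 to 5 and reads in 3 of the 7 cryptorchid libraries (19, 10 and 3).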

Other observations

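Marker sums overlapped between the groups for each of the 10 cell types. A sum is set mostly by its best read genes, and single spermatogonial markers went both ways, as given above. Summed RPM was 1167 to 1735 in control and 1319 to 2025 in cryptorchid libraries for undifferentiated spermatogonia, and 135 to 295 and 185 to 348 for differentiating spermatogonia. For somatic cells it was 8.64 to 15.5 and 6.18 to 47.8 for Leydig cells (4 of 7 above every control and 2 below), 1.46 to 16.5 and 0.714 to 14.5 for peritubular myoid cells, 3.62 to 23.8 and 10.6 to 36.6 for macrophages, 0.417 to 7.53 and 1.12 to 13.6 for lymphocytes, and 24.6 to 41.6 and 30.01 to 58.3 for endothelial cells. Single Leydig genes differed. *Star* was read in every library, at a median of 3.35 log2 RPM in control and 4.25 in cryptorchid libraries. The steroidogenic gene *Cyp17a1* had no reads in 4 of the 5 control and in all 7 cryptorchid libraries.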
